A study of Mus musculus with 30 samples.

Results

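MHC class II presentation genes are described here in the RPE and the macrophages of wild-type mice and of 3 Mertk knockout lines. The 8 members are H2-Aa, H2-Ab1, H2-Eb1, H2-DMa, H2-DMb1, Cd74, Ciita and Cd86, taken by symbol from the name column of each table. All 8 were found once in each table of 55573 genes. RPE, the retinal pigment epithelium, lies behind the photoreceptors and clears their shed outer segments. It was collected at P25 by agitating the posterior eyecup in RNAprotect until the cells came loose. Bone marrow-derived macrophages (BMDMs) were grown from adult marrow for 7 days in medium conditioned by L929 cells, which secrete the growth factor CSF1.

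The 4 genotypes were sequenced as biological replicates, with 6 libraries each of B6 WT and Mertk -/-V1 RPE, 3 libraries of RPE from either of the other lines, and 3 BMDM libraries of every genotype. B6 WT mice were labelled C57BL/6, and the paper lists them as C57BL/6J. Mertk -/-V1 mice lack exon 17 of Mertk through a targeting made in 129P2 embryonic stem cells. They were backcrossed for more than 10 generations but still carry 129P2 sequence around Mertk on chromosome 2, together with the selection cassette. Mertk -/-V2 mice lack exon 18, excised in the germline from a floxed allele of C57BL/6NJ origin by an inducible Cre that was then bred out. Mertk -/-V3 mice carry a CRISPR/Cas9 deletion aimed at exons 3 and 4, made in C57BL/6NJ eggs. By the SNP analysis in the paper, the genomes of Mertk -/-V2 and Mertk -/-V3 mice were partly C57BL/6NJ and otherwise C57BL/6J. The C57BL/6NJ part was larger in Mertk -/-V3. Against B6 WT, substrain and Mertk allele thus cannot be told apart in these lines. All 3 alleles are constitutive, so no group lacks Mertk in one cell type alone. None of the 8 members lies on chromosome 2.

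MHC class II molecules are cell surface receptors that show peptides from the endocytic pathway to CD4+ T cells. Each one pairs an alpha and a beta chain, is held empty by the invariant chain CD74, and receives its peptide in late endosomes with the help of H2-DM. Transcription of these genes depends on CIITA, a co-activator that does not bind DNA itself and that interferon gamma induces in cells such as macrophages. Dendritic cells and B cells express the pathway without induction, while resting macrophages and RPE cells express little of it. MERTK is a receptor tyrosine kinase with which macrophages and RPE cells take up dying cells or shed outer segments.

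CIITA acts through factors bound to the X and Y boxes ahead of class II genes, so the promoters of the members are shown first. The RefSeq promoter table for GRCm38.p6, with 250 bases before and 50 bases after each start site, held 5 promoters of 4 members, H2-Aa, H2-Eb1, H2-DMb1 and H2-DMa (2 entries). In the sequences below, written 5′ to 3′ on the strand of the gene, the first run of capitals marks the X box letters CTNGNAACT and the second run the Y box letters TGATTGG, the inverted CCAAT motif bound by NF-Y. The letters were chosen after these promoters had been read.
H2-Aa, chr17:34287774-34288073, minus strand: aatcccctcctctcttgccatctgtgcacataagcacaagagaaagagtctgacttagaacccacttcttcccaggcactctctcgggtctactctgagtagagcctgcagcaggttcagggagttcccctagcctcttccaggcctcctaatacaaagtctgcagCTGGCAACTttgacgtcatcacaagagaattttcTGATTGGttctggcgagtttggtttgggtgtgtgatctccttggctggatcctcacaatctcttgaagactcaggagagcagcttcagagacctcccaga
H2-Eb1, chr17:34305617-34305916, plus strand: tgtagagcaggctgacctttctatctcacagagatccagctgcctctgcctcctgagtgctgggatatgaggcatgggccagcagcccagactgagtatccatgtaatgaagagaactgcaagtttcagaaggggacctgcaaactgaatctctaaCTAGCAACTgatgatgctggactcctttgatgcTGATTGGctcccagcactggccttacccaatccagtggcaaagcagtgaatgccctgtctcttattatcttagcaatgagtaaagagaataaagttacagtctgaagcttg
H2-DMb1, chr17:34152941-34153240, plus strand: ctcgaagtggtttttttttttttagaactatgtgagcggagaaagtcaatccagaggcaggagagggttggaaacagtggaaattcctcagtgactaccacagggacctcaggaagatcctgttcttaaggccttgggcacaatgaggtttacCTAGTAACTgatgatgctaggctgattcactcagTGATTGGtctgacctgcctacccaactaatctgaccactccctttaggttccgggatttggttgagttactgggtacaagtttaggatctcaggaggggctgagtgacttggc

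The gap between the X and Y letters was 25 bases in H2-Aa and H2-DMb1 and 24 in H2-Eb1. Over all 32851 promoters of that length, searched on both strands, 4.10% held the X letters and 7.82% the Y letters. In all, 5 promoters (0.0152%) held the X letters 10 to 30 bases ahead of the Y letters on the strand of the gene. They were those of H2-Aa, H2-Eb1, H2-DMb1, BC051142 and 1700048F04Rik. Since the letters were chosen with the member promoters already read, H2-Aa, H2-Eb1 and H2-DMb1 were bound to be counted. The share is thus a description and no test. Neither of the 2 entries of H2-DMa (34122582 to 34122881 and 34125268 to 34125567) held either set of letters in this window. The gene is annotated from 34119541 to 34139101, and no other start site of it was searched. Whether H2-DMa lacks these boxes is thus not shown. Of the other class II chains, H2-Oa, H2-Ob, H2-DMb2 and H2-Eb2 each held the Y letters without the X letters as spelled here.

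Libraries held 14137666 to 34124049 reads on genes in RPE and 16629659 to 25653814 in BMDMs. Values are normalized counts, that is, reads divided by a size factor of the library, with fold changes on the scale of log2(normalized count + 1). Mertk itself was counted at 2638 to 3924 normalized counts (median 3230.1, n = 6) in B6 WT RPE, at 919 to 1717 (median 1070.5, n = 6) in Mertk -/-V1 and at 444, 1005 and 1106 in Mertk -/-V3. In BMDMs the means were 2648 ± 233, 865 ± 18 and 687 ± 36.1 (SD, n = 3 each) in the same order. Libraries labelled Mertk -/-V2 held 4229 ± 945 (SD, n = 3) in RPE and 3567 ± 30.7 (SD, n = 3) in BMDMs, and a count over the whole gene does not test the loss of 1 exon. Macrophage markers (11 genes) summed to 316743 to 358998 in BMDMs and to 6283 to 13006 in RPE, where the 10 RPE markers summed to 219103 to 917388. Rod photoreceptor markers (5 genes) summed to 26691 to 740517 in RPE, and to 46557 to 344790 within Mertk -/-V3. Over the 18 RPE libraries their sum had r = -0.386 with the mean log2 value of H2-Aa, H2-Ab1, H2-Eb1 and Cd74. Without Mertk -/-V3 replicate 2 it was -0.633. For the macrophage marker sum, most of it Csf1r, r was 0.566, and 0.746 without that library. For the RPE marker sum it was 0.434 and 0.582. For the leukocyte genes Ptprc, Laptm5, Coro1a and Cd53 it was 0.0613 and -0.122. The libraries share genotypes, and the part of any of these lists in the class II values was not tested. RPE libraries thus held RNA of other cells too. In bulk RNA, fewer class II cells and less RNA per cell cannot be told apart. Within B6 WT and Mertk -/-V1 RPE, the set of replicates 4 to 6 differed widely from replicates 1 to 3. Of 18832 genes tested, 7896 had an adjusted p under 0.05. Among the 8 members 0 did, with log2 differences of -0.53 to 0.44 and a lowest limma adjusted p of 0.0579. The limma intervals of H2-DMa (0.02 to 0.85) and H2-DMb1 (-0.76 to -0.06) left out 0, and those of the other members crossed it. The members were thus not shown to be free of the set difference. The other lines have no second set, so for them set and genotype cannot be told apart.

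On GRCm38 with GENCODE M21, 5 of the members lie close together on chromosome 17. They are H2-DMa (34119541 to 34139101), H2-DMb1 (34153072 to 34160230), H2-Ab1 (34257689 to 34269419), H2-Aa (34282744 to 34287823) and H2-Eb1 (34305867 to 34316674). Ciita (10480059 to 10528418) and Cd86 (36603869 to 36666081) lie on chromosome 16, and Cd74 on chromosome 18 (60803848 to 60812652).

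Levels between genes were compared as RPKM, reads scaled by exon length and by the reads of the library. Length is that of all annotated exons merged, with 3798 bases for H2-Aa, 2568 for H2-Ab1 and 1944 for H2-Eb1. The order of these genes in RPE depends on it. Before scaling by length their median normalized counts over RPE libraries were 213, 171 and 168, the reverse of the RPKM order. In B6 WT RPE, Cd74 was the most abundant at 9.45 ± 1.70 (SD, n = 6), followed by H2-DMb1 at 5.78 ± 0.739, H2-Eb1 at 3.61 ± 0.958, H2-Ab1 at 2.54 ± 0.543 and H2-Aa at 2.15 ± 0.436. H2-DMa stood at 0.538 ± 0.0890, Cd86 at 0.180 ± 0.0382 and Ciita at 0.124 ± 0.0693. The ranges of neighbours overlapped from H2-DMb1 through to H2-Aa and again between Cd86 and Ciita. The order was different in B6 WT BMDMs, where H2-DMb1 led at 20.9 ± 2.20 (SD, n = 3). It was followed by Cd74 at 5.07 ± 0.288, H2-DMa at 4.20 ± 0.475, Cd86 at 2.33 ± 0.207, H2-Ab1 at 1.58 ± 0.260, H2-Eb1 at 1.37 ± 0.0839, H2-Aa at 0.867 ± 0.207 and Ciita at 0.0280 ± 0.0237. Only H2-Ab1 and H2-Eb1 overlapped there as neighbours. The H2-DM chains and the co-stimulator Cd86 thus ranked above H2-Aa, H2-Ab1 and H2-Eb1 in BMDMs, and H2-DMa and Cd86 ranked below these 3 genes in RPE. Each table was scaled on its own, so levels were not tested between tissues.

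**Figure D1:**
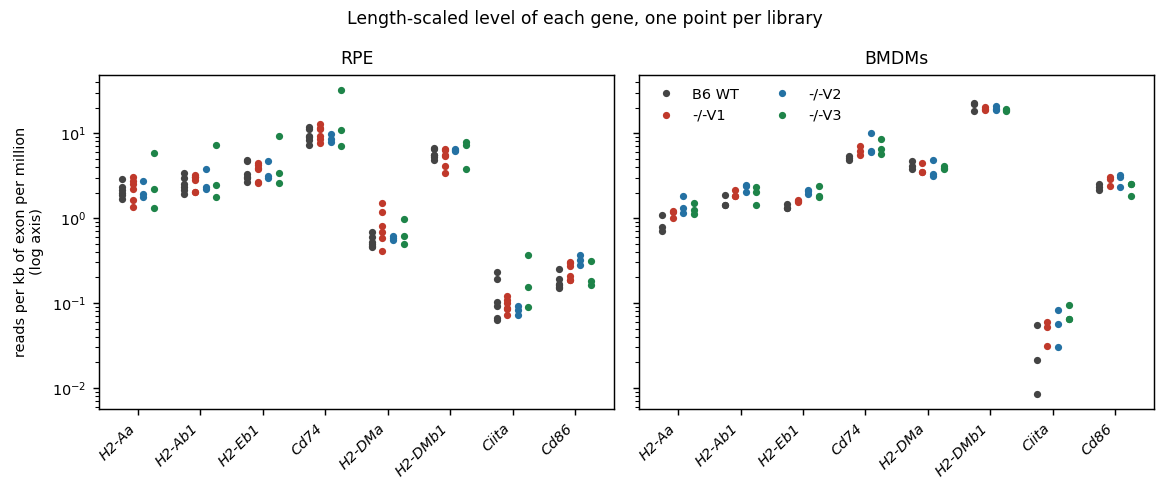
RPKM (log axis) for the 8 members in RPE (left) and BMDMs (right), with 1 point per library, coloured by genotype. Cd74 was highest in B6 WT RPE and H2-DMb1 in B6 WT BMDMs, and 1 Mertk -/-V3 RPE library sits above all others for Cd74, H2-Aa, H2-Ab1, H2-Eb1 and Ciita.

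H2-Ea-ps, the alpha chain locus that is defective in the b haplotype of C57BL/6 and 129 mice, had 0 reads in all 30 libraries, a count that allows up to 3 reads in each.

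In BMDMs the 4 classical genes (H2-Aa, H2-Ab1, H2-Eb1 and Cd74) had higher means in every knockout than in B6 WT, but none of these differences passed the adjusted p. H2-Aa, the alpha chain of I-A, was counted at 85.5, 53.8 and 62.5 normalized counts in B6 WT, at 78.7, 93.0 and 91.1 in Mertk -/-V1, at 141, 103 and 87.4 in Mertk -/-V2 and at 118, 88.5 and 96.4 in Mertk -/-V3. Every Mertk -/-V2 and Mertk -/-V3 library lay above every B6 WT library, while Mertk -/-V1 overlapped them. The log2 fold change was 0.40 (SE 0.20) in Mertk -/-V1, 0.70 (SE 0.20) in Mertk -/-V2 and 0.59 (SE 0.20) in Mertk -/-V3, with limma adjusted p of 0.257, 0.0642 and 0.172.

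H2-Ab1 encodes the beta chain that pairs with H2-Aa. It was counted at 98.7, 73.4 and 76.2 in B6 WT, at 97.5, 96.0 and 111 in Mertk -/-V1, at 125, 131 and 104 in Mertk -/-V2 and at 122, 76.8 and 106 in Mertk -/-V3. Only the Mertk -/-V2 libraries were all above B6 WT. Its log2 fold changes were 0.30 (SE 0.18), 0.54 (SE 0.18) and 0.28 (SE 0.18), with limma adjusted p of 0.339, 0.102 and 0.483.

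H2-Eb1, the beta chain of I-E, varied least among the B6 WT mice. Its values were 52.6, 57.1 and 52.8 in B6 WT, 63.4, 64.0 and 61.9 in Mertk -/-V1, 82.5, 84.7 and 74.1 in Mertk -/-V2 and 96.1, 72.5 and 73.9 in Mertk -/-V3. All 9 knockout libraries lay above all 3 B6 WT libraries. The log2 fold changes were 0.22 (SE 0.15), 0.56 (SE 0.15) and 0.56 (SE 0.15), with limma adjusted p of 0.424, 0.0501 and 0.0887, so H2-Eb1 missed the threshold of 0.05 in Mertk -/-V2 BMDMs by a narrow margin.

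Cd74, the invariant chain, showed the same separation. B6 WT libraries held 184, 161 and 176 normalized counts, Mertk -/-V1 193, 213 and 246, Mertk -/-V2 337, 214 and 199, and Mertk -/-V3 295, 200.4 and 227. No knockout library lay within the B6 WT range. The log2 fold changes were 0.32, 0.48 and 0.45 (SE 0.18 each), with limma adjusted p of 0.330, 0.146 and 0.250.

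Ciita rested on 2 to 17 reads per BMDM library. Its normalized counts were 4.11, 1.63 and 10.7 for B6 WT, 11.7, 6.00 and 10.1 in Mertk -/-V1, 15.8, 11.1 and 5.70 in Mertk -/-V2 and 18.6, 12.8 and 12.9 in Mertk -/-V3. The Mertk -/-V3 libraries were above all of B6 WT and the others overlapped. The log2 fold changes of 0.88, 1.04 and 1.52 had an SE of 0.52 each, and the limma adjusted p were 0.334, 0.271 and 0.171. Ciita shares exon bases with Dexi, on the opposite strand, and whether the counting used strand is not given in the sources used here. Dexi medians were 252 in B6 WT and 210.3, 218 and 228 in the knockouts.

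The H2-DM chains, which load peptide, had lower means in the knockouts, again without passing the test. H2-DMb1 was counted at 754, 756 and 639.9 in B6 WT, 702, 637 and 658 in Mertk -/-V1, 640.5, 675 and 702 in Mertk -/-V2 and 647, 669 and 628 in Mertk -/-V3. H2-DMa was at 289, 327 and 271 in B6 WT, 248, 309 and 249 in Mertk -/-V1, 229, 224 and 332 in Mertk -/-V2 and 274, 269 and 292 in Mertk -/-V3. All groups overlapped with B6 WT, and the log2 fold changes were between -0.19 and -0.08. The 95% intervals reached no higher than 0.22 for H2-DMa and 0.06 for H2-DMb1 in any knockout. Cd86, a co-stimulatory ligand of CD28, was at 189, 173 and 160.2 in B6 WT, 182, 224 and 219 in Mertk -/-V1, 235, 229 and 170.0 in Mertk -/-V2 and 139, 194 and 189.6 in Mertk -/-V3, with log2 fold changes of 0.26, 0.27 and -0.01 (SE 0.15 each).

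**Figure D2:**
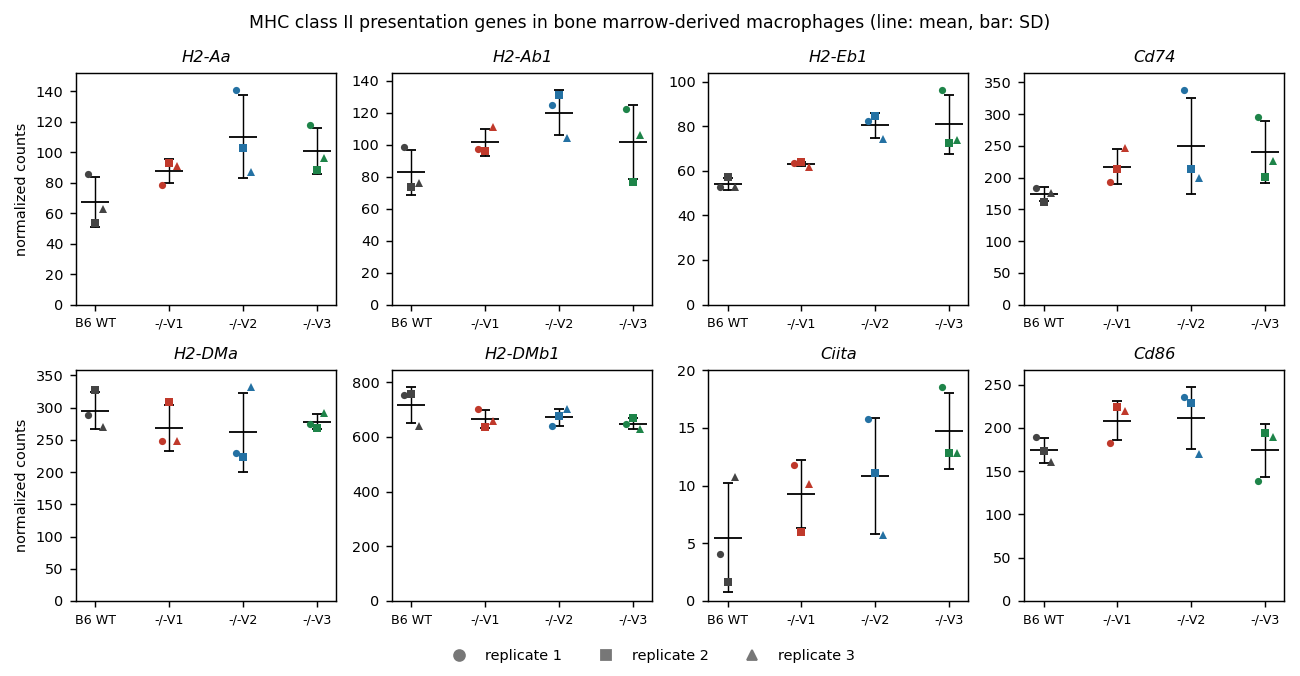
Normalized counts of the 8 members in BMDMs by genotype. Each point is 1 library with its replicate number given by the marker shape, lines are means and bars are SD (n = 3). H2-Eb1 and Cd74 lie above B6 WT in all 9 knockout libraries, whereas H2-DMa and H2-DMb1 overlap.

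The members were then set against all genes tested. In Mertk -/-V1 BMDMs 949 of 13420 genes tested (7.07%) had an adjusted p under 0.05, in Mertk -/-V2 618 (4.61%) and in Mertk -/-V3 157 (1.17%), and in each comparison 0 of the 8 members did. These totals depended on single libraries, and without B6 WT replicate 1 they were 242, 146 and 33. At an unadjusted p under 0.05, 0 members were higher in Mertk -/-V1 against 12.4% of all genes. In Mertk -/-V2 there were 4 of 8 (H2-Aa, H2-Ab1, H2-Eb1 and Cd74) against 9.68%, and in Mertk -/-V3 4 of 8 (H2-Aa, H2-Eb1, Cd74 and Ciita) against 7.82%. Members with every knockout library above every B6 WT library numbered 2 in Mertk -/-V1 against 15.4% of all genes, 4 in Mertk -/-V2 against 10.1% and 4 in Mertk -/-V3 against 12.2%. The median log2 fold change over the members was 0.28, 0.51 and 0.37 in the 3 knockouts, beside medians of -0.0047, -0.00096 and 0.0048 over all genes tested. The 3 comparisons share their B6 WT libraries, so they are not separate tests of the same gene. Nor are the members separate observations, since H2-Aa, H2-Ab1, H2-Eb1 and Cd74 varied together over the BMDM libraries (pairwise r of 0.692 to 0.908). The members were also chosen with earlier results of these data known. The counts and medians are therefore descriptions.

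Single libraries moved these calls. Without Mertk -/-V2 replicate 3, which had the lowest H2-Aa, H2-Ab1, H2-Eb1, Cd74, Ciita and Cd86 of its group, H2-Aa (log2 fold change 0.86, limma adjusted p = 0.0245) and H2-Eb1 (0.62, limma adjusted p = 0.0437) passed. In that fit 1166 of 13420 genes passed, beside 618 with all libraries. Without B6 WT replicate 3, Ciita passed in Mertk -/-V3 (2.08, limma adjusted p = 0.0491), together with 251 genes in all, beside 157. DESeq2 on the recovered reads placed H2-Aa in Mertk -/-V2 at an adjusted p of 0.0327, among 831 genes called, and a pseudocount of 5 placed H2-Eb1 there at a limma adjusted p of 0.0490, among 622.

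Markers of dendritic cells, which express class II genes strongly, varied with genotype in BMDMs. The list of 10 genes summed to 477 to 702 for B6 WT, 889.8 to 1009 in Mertk -/-V1, 521 to 1089 in Mertk -/-V2 and 925 to 995 in Mertk -/-V3. Most of the sum was Clec10a (381 to 936), a lectin that alternatively activated macrophages express as well. Itgax, which macrophages also express, ranged from 31.0 to 133 and Batf3 from 34.5 to 48.5. Of the other genes of the list, Flt3 ranged from 0 to 19.4, Zbtb46 from 2.35 to 14.2, Xcr1 from 0 to 4.85, Clec9a from 0 to 8.49, Ccr7 from 0 to 3.21, Cd209a from 0 to 6.75 and Ccl22 from 0 to 2.47. The list sum had r = 0.675 with the mean log2 value of H2-Aa, H2-Ab1, H2-Eb1 and Cd74 over the 12 libraries, which share genotypes. Its part in the class II values was not tested. The 5 B cell markers summed to 41.6 to 77.1, nearly all of it Cd79b, with Ms4a1, Pax5 and Cd79a at 6.75 or less in every library.

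In RPE no member passed the adjusted p in any knockout, and only Cd86 in Mertk -/-V2 had a 95% interval that left out 0. Of 18832 genes tested, 73 (0.388%) had an adjusted p under 0.05 in Mertk -/-V1. The count was 13 (0.0690%) in Mertk -/-V2 and likewise 13 (0.0690%) in Mertk -/-V3, and 0 of the 8 members were among them. At an unadjusted p under 0.05, higher members numbered 0 in Mertk -/-V1 (3.31% of all genes), 1 in Mertk -/-V2 (2.86%) and 0 in Mertk -/-V3 (4.75%). Members with all knockout libraries above all B6 WT libraries numbered 0 (0.568% of all genes), 1 (3.72%) and 0 (2.75%).

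**Figure D3:**
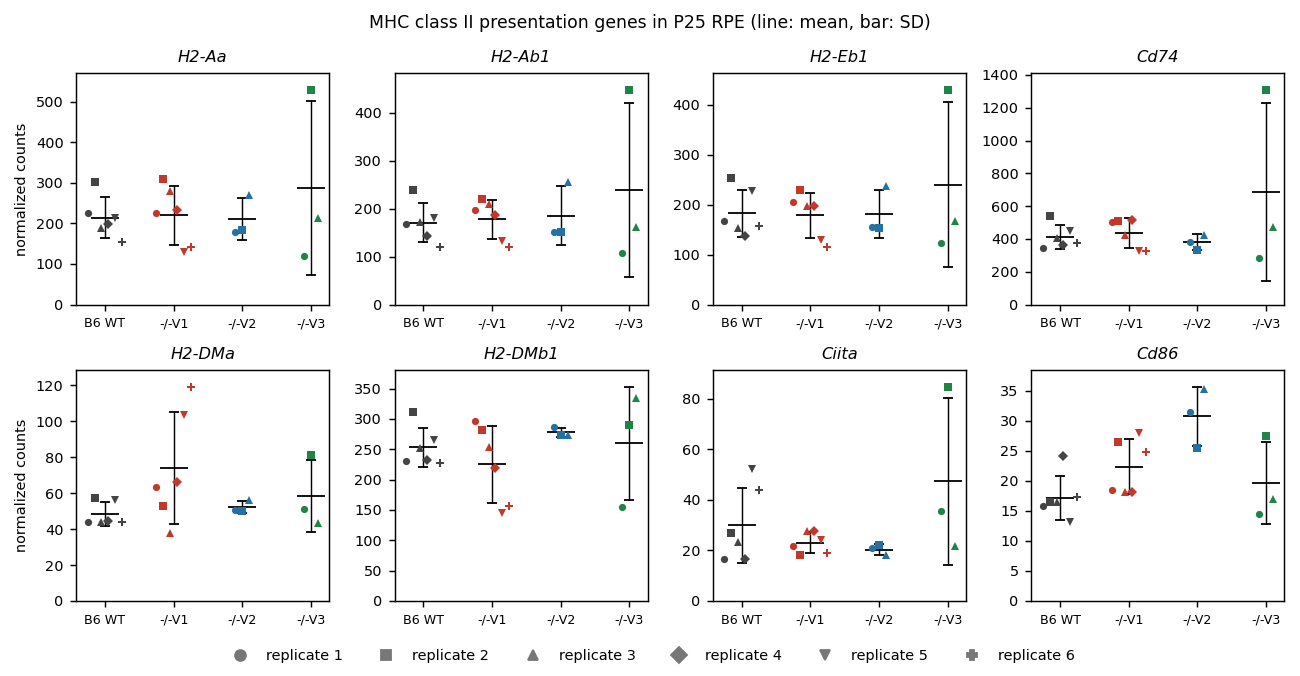
Normalized counts of the 8 members in P25 RPE by genotype. Each point is 1 library with its replicate number given by the marker shape, lines are means and bars are SD (n = 6 for B6 WT and Mertk -/-V1, n = 3 for Mertk -/-V2 and Mertk -/-V3). Mertk -/-V3 replicate 2 stands far above its group for H2-Aa, H2-Ab1, H2-Eb1, Cd74 and Ciita.

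The classical genes overlapped fully between B6 WT and Mertk -/-V1 RPE. H2-Aa ranged from 154 to 302 (median 206, n = 6) in B6 WT and from 129 to 309.9 (median 229, n = 6) in Mertk -/-V1, with 179.7, 182 and 270.1 in Mertk -/-V2. Cd74 ranged from 347 to 542 (median 390.2, n = 6) in B6 WT and from 324 to 515 (median 465, n = 6) in Mertk -/-V1, with 384, 332 and 426 in Mertk -/-V2. H2-Ab1 ranged from 121 to 239 (median 171) and from 120.3 to 221 (median 191), with 151, 150.2 and 255 in Mertk -/-V2. H2-Eb1 ranged from 137 to 254 (median 162) and from 115 to 228 (median 198), with 155, 154 and 237 in Mertk -/-V2. In these 4 genes the log2 fold changes were -0.04 to 0.06 in Mertk -/-V1 and -0.11 to 0.10 in Mertk -/-V2. The 95% intervals together ran from -0.64 to 0.65 in Mertk -/-V1 and from -0.80 to 0.84 in Mertk -/-V2, so differences of the size seen in BMDMs were within the error here.

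Mertk -/-V3 replicate 2 set the values of its group. Cd74 was counted at 282, 1306 and 470.4 in replicates 1 to 3 of Mertk -/-V3, H2-Aa at 120.5, 527 and 213, H2-Ab1 at 108, 446 and 162, H2-Eb1 at 123, 429 and 168 and Ciita at 35.7, 84.8 and 21.6. In each of these genes replicate 2 was the highest of all 18 RPE libraries. With it the log2 fold changes against B6 WT were 0.45 (SE 0.33) for Cd74, 0.19 (SE 0.37) for H2-Aa, 0.25 (SE 0.35) for H2-Ab1, 0.22 (SE 0.33) for H2-Eb1 and 0.55 (SE 0.40) for Ciita. On the recovered reads edgeR gave 0.75, 0.44, 0.50, 0.41 and 0.68 in the same order and DESeq2 gave 0.74, 0.44, 0.50, 0.41 and 0.69, with the lowest adjusted p at 0.424 in edgeR and 0.333 in DESeq2, both for Cd74 (unadjusted p = 0.0389 and 0.0311). Without replicate 2 the limma values were -0.16, -0.39, -0.33, -0.31 and 0.03 in the same order, with limma adjusted p of 0.880 or more for the first 4 and 0.987 for Ciita. H2-DMb1 did not share the pattern, at 155, 289 and 335.

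Marker sums of immune cells in that library were within the range of the other RPE libraries, taken over all genotypes. Macrophage and microglia markers summed to 10371, beside 6283 to 13006 over all RPE libraries, but 8386 of it was Csf1r. Without Csf1r, a comparison added after seeing the data, the sum was 1985 beside 1708 to 3769. The dendritic cell list stood at 348 of a range of 192 to 411 and the B cell list at 74.8 of 48.0 to 122. Ptprc, Laptm5, Coro1a and Cd53, which all leukocytes express, stood at 819 of 421 to 1167. That leukocyte sum was above every B6 WT (421 to 556) and every Mertk -/-V2 library (597 to 641). Only Mertk -/-V1 libraries (769.7 to 1167) reached higher. Within the dendritic cell list Xcr1 was at 8.73, Clec9a at 4.99, Flt3 at 11.2 and Ccr7 at 0. Itgax was at 54.9, beside a median of 33.1 over RPE libraries. Most of the 348 was Zbtb46 at 252, the highest of all RPE libraries and above the next at 245. Zbtb46 was at 120 or more in every RPE library, so the sum rested mainly on that gene. Tgtp2, named below for its likeness to H2-Aa, H2-Ab1, H2-Eb1 and Cd74, was highest there at 202, as were the other genes so named. That likeness was computed with this library included, so their high values there are no separate result.

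Both H2-DM chains overlapped between B6 WT and the knockouts in RPE, with a wide spread in Mertk -/-V1. H2-DMa ranged from 43.7 to 57.4 (median 44.2, n = 6) in B6 WT and from 37.9 to 119 (median 64.9, n = 6) in Mertk -/-V1, with 50.8, 50.1 and 55.9 in Mertk -/-V2 and 51.3, 81.1 and 43.2 in Mertk -/-V3. The log2 fold change in Mertk -/-V1 was 0.51 (SE 0.24, limma adjusted p = 0.731), made up of 0.07 within replicates 1 to 3 and 0.95 within replicates 4 to 6. H2-DMa shares exon bases with Brd2, on the opposite strand, which was counted at 4761 to 5127 in B6 WT and 4878 to 5889 in Mertk -/-V1. H2-DMb1 ranged from 228 to 312 (median 243, n = 6) in B6 WT and from 146 to 296 (median 236, n = 6) in Mertk -/-V1, where replicates 5 and 6 held 146 and 156 while the other 4 held 219 to 296. It stood at 286, 274 and 274 in Mertk -/-V2.

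Cd86 was the member with the lowest p in RPE. It was counted at 13.1 to 24.1 (median 16.5, n = 6) in B6 WT, 18.1 to 27.9 (median 21.6, n = 6) in Mertk -/-V1, 31.4, 25.5 and 35.3 in Mertk -/-V2 and 14.5, 27.4 and 17 in Mertk -/-V3. All 3 Mertk -/-V2 libraries were above all 6 B6 WT libraries, with a log2 fold change of 0.81 (SE 0.24, unadjusted p = 0.00424, limma adjusted p = 0.665). It rested on 30 to 41 reads in these libraries. The leukocyte genes Ptprc, Laptm5, Coro1a and Cd53 summed to 597 to 641 there and to 421 to 556 in B6 WT, also without overlap, and their part in the Cd86 values was not tested. In Mertk -/-V1 and Mertk -/-V3 the log2 fold changes were 0.36 (SE 0.20) and 0.15 (SE 0.24), and both groups overlapped B6 WT. Ciita ranged from 16.7 to 52.4 (median 25.1, n = 6) in B6 WT and from 18 to 27.8 (median 23.0, n = 6) in Mertk -/-V1, and was at 20.9, 22.1 and 18.1 in Mertk -/-V2.

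**Figure D4:**
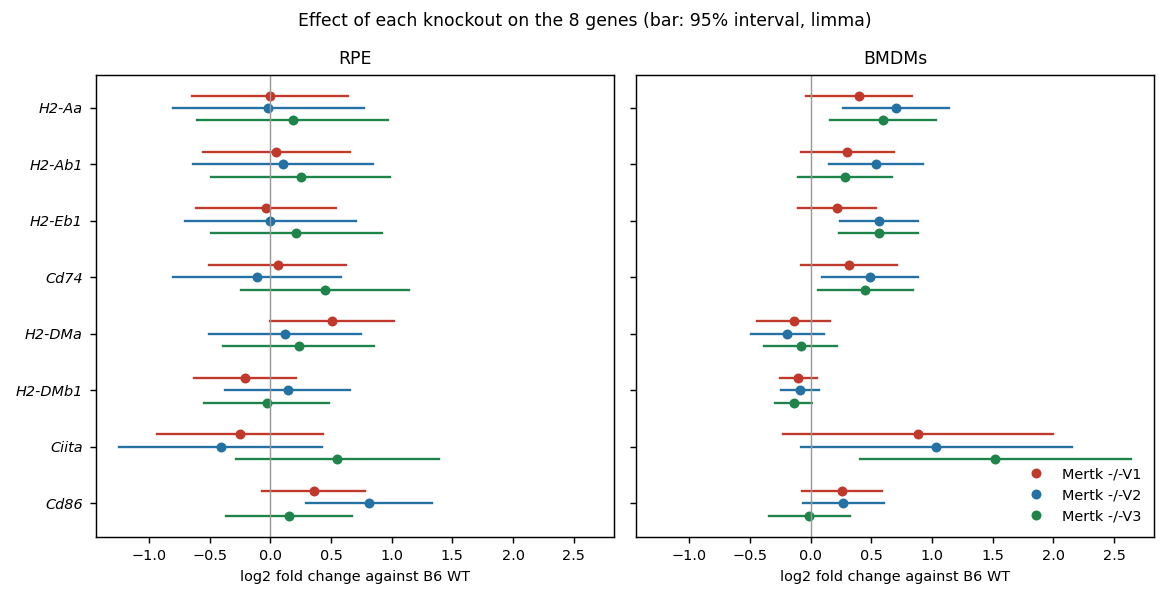
Log2 fold change of each member against B6 WT in RPE (left) and BMDMs (right), with 1 point per knockout line and bars for the 95% interval from limma. In BMDMs the points of H2-Aa, H2-Ab1, H2-Eb1, Cd74 and Ciita lie to the right of 0 for all 3 lines, and in RPE every interval but that of Cd86 in Mertk -/-V2 crosses 0.

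Mertk -/-V1 was also set against the average of the other 2 lines, to see whether the line with 129P2 sequence stood apart. In BMDMs 133 genes (0.991%) and in RPE 39 genes (0.207%) passed the adjusted p, with 0 of the 8 members in either. H2-Eb1 in BMDMs was the nearest, with a log2 difference of -0.34 (SE 0.13, unadjusted p = 0.0202, limma adjusted p = 0.324), with the lower mean in Mertk -/-V1. The other 7 members in BMDMs had differences of -0.39 to 0.13 and the 8 in RPE of -0.32 to 0.33.

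The difference between the tissues was tested in 1 model of all 30 libraries, as the log2 fold change in RPE minus that in BMDMs. For the Mertk -/-V1 effect 47 of 12513 genes (0.376%) passed the adjusted p, for Mertk -/-V2 15 (0.120%) and for Mertk -/-V3 5 (0.0400%), with 0 of the 8 members each time. H2-Aa, H2-Ab1, H2-Eb1 and Cd74 had differences of -0.40 to -0.25 for Mertk -/-V1, -0.72 to -0.44 for Mertk -/-V2 and -0.41 to -0.0025 for Mertk -/-V3. Ciita had the largest, at -1.13 (SE 0.60), -1.45 (SE 0.65) and -0.97 (SE 0.65), with limma adjusted p of 0.625, 0.434 and 0.773. No member was thus shown to respond differently in BMDMs and RPE.

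The 4 classical genes varied together among libraries of both tissues. Over their 6 pairs, Pearson r of the log2 values was 0.879 to 0.962 in the 18 RPE libraries, 0.80 to 0.937 without Mertk -/-V3 replicate 2, and 0.692 to 0.908 in the 12 BMDM libraries. Over all 28 pairs of members the median r was 0.328 in RPE, 0.00869 without that library, and 0.135 in BMDMs. The libraries share genotypes and sets of replicates, so these are descriptions. Outside the members, the genes most like the mean of H2-Aa, H2-Ab1, H2-Eb1 and Cd74 in RPE were 2310068J16Rik (r = 0.752), Tgtp2 (0.719), Calr4 (0.719), Gm11615 (0.715) and Coq8b (0.713). Each of the 5 was highest in Mertk -/-V3 replicate 2, and without it r was 0.427 for Tgtp2 and 0.571 to 0.686 for the others. In BMDMs they were Zfpl1 (r = 0.947), Rpl15-ps1 (0.907), Trim56 (0.878), Gm10179 (0.856) and Cfap410 (0.852).

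The rest of the pathway was read from 6 lists of 39 symbols, of which 36 are in the tables. The lists cover other class II chains, lysosomal processing, transactivators, interferon gamma input, turnover, and co-stimulatory and checkpoint ligands. Of the 30 genes tested in RPE, 2 rose and 0 fell in Mertk -/-V1, and 0 passed in Mertk -/-V2 and Mertk -/-V3. Of the 31 tested in BMDMs, 0 rose and 2 fell in Mertk -/-V1, and 0 passed in the other lines. The median log2 fold change over the lists was 0.07, -0.0011 and -0.08 in RPE and -0.08, -0.06 and 0.0027 in BMDMs for Mertk -/-V1, Mertk -/-V2 and Mertk -/-V3.

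Ctss rose in Mertk -/-V1 RPE. It encodes cathepsin S, the protease that trims the invariant chain to leave CLIP in the peptide groove, and lies on chromosome 3 from 95526786 to 95556403. It ranged from 330.4 to 481 (median 366, n = 6) in B6 WT and from 513 to 1379 (median 762, n = 6) in Mertk -/-V1, with no overlap. The log2 fold change was 1.07 (SE 0.18, limma adjusted p = 0.00977). Mertk -/-V2 stood at 501, 541 and 647 and Mertk -/-V3 at 809, 727 and 512, all above B6 WT, with log2 fold changes of 0.57 (SE 0.22) and 0.83 (SE 0.22) and limma adjusted p of 0.840 and 0.422. Set against the average of the other lines, Mertk -/-V1 had a log2 difference of 0.37 (SE 0.18, limma adjusted p = 0.540), so Ctss was not shown to differ between the lines. Within replicates 1 to 3 the log2 fold change in Mertk -/-V1 was 0.89 and within replicates 4 to 6 it was 1.26, neither with an adjusted p under 0.05.

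In BMDMs, where Ctss was counted at 12905 to 17024, the log2 fold change in Mertk -/-V1 was -0.20 (SE 0.08, limma adjusted p = 0.128). The difference between the tissues for Mertk -/-V1 passed, at 1.28 (SE 0.26, limma adjusted p = 0.0234). Ptprc, Laptm5, Coro1a and Cd53 together moved with Ctss in RPE. They summed to 421 to 556 in B6 WT, 769.7 to 1167 in Mertk -/-V1, 597 to 641 in Mertk -/-V2 and 499.7 to 819 in Mertk -/-V3. Their part in the Ctss values was not tested, and the sum of the macrophage and microglia list overlapped, at 7854 to 13006 in B6 WT and 6283 to 11791 in Mertk -/-V1. Most of that sum was Csf1r, and the other 10 genes summed to 1708 to 2905 (median 2514) in B6 WT and 2503 to 3743 (median 3363) in Mertk -/-V1, with overlap.

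H2-Ob and Ifi30 fell in Mertk -/-V1 BMDMs. H2-Ob encodes the beta chain of H2-O, which restrains H2-DM. It was counted at 37.8, 50.5 and 26.4 in B6 WT and 15.3, 18 and 13.5 in Mertk -/-V1 (log2 fold change -1.20, SE 0.27, limma adjusted p = 0.0184), with 30.3, 25.2 and 39.9 in Mertk -/-V2 and 22.9, 27.7 and 28.1 in Mertk -/-V3. Only the Mertk -/-V1 libraries were all below B6 WT, on 12 to 18 reads each, and the call was lost without either of B6 WT replicates 1 and 2 or Mertk -/-V1 replicates 1 and 3 (limma adjusted p of 0.0573 to 0.0970). Against the other lines the log2 difference was -0.84 (SE 0.23, limma adjusted p = 0.152). H2-Oa, its partner, had at most 8 reads in any BMDM library. Ifi30, the thiol reductase that unfolds antigens in lysosomes, was at 2787, 2820.2 and 2698 in B6 WT, 2326, 2315 and 2288 in Mertk -/-V1, 2429.7, 2673 and 2409 in Mertk -/-V2 and 2779.9, 2769 and 2683 in Mertk -/-V3. The Mertk -/-V2 libraries too were all below B6 WT (log2 fold change -0.15, SE 0.04, limma adjusted p = 0.0754). Its log2 fold change was -0.26 (SE 0.04, limma adjusted p = 0.00426) against B6 WT and -0.18 (SE 0.04, limma adjusted p = 0.0370) against the average of the other lines. The latter call was lost without any 1 of the Mertk -/-V1 or Mertk -/-V3 libraries (limma adjusted p of 0.0615 to 0.214).

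**Figure D5:**
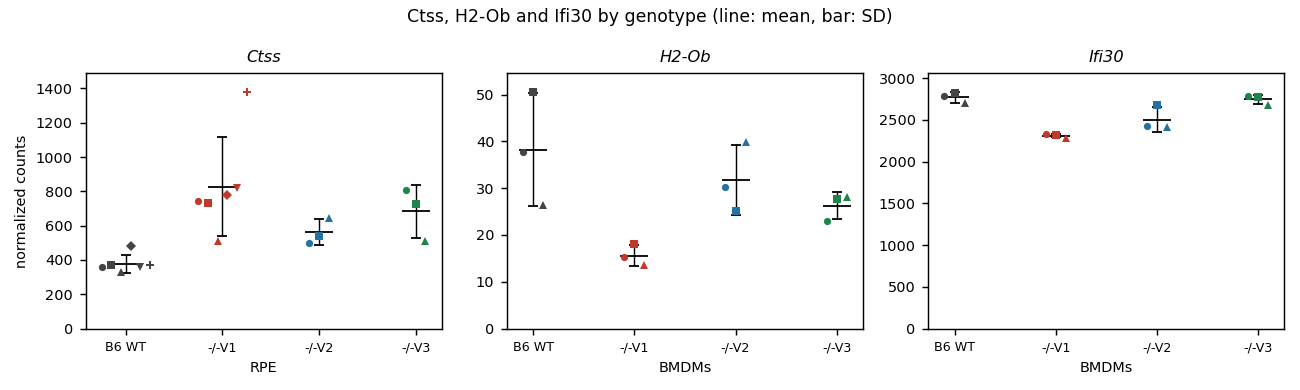
Normalized counts of Ctss in RPE and of H2-Ob and Ifi30 in BMDMs by genotype. Each point is 1 library, lines are means and bars are SD (n = 6 for B6 WT and Mertk -/-V1 RPE, n = 3 otherwise). Ctss in Mertk -/-V1 RPE lies above, and H2-Ob and Ifi30 in Mertk -/-V1 BMDMs below, every B6 WT library.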

How the data were processed

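Polyadenylated RNA was read from both ends at 150 bp. Per the methods and the submitters' processing notes, the authors used btrim for trimming, STAR for mapping to GRCm38 and DESeq2 for normalization. The counter, annotation release and versions are not given in the sources used here. The deposited signal of each library is its gene counts divided by 1 size factor, and dividing by the smallest value above 0 gave whole reads (deviation at most 0.0005). The limma intervals rest on the spread between replicate libraries, whereas the limit of 3 reads covers counting error only.

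Exon lengths and positions came from GENCODE M21, promoters from RefSeq. limma 3.58.1 (trend) was run on log2(normalized count + 1), with the 4 genotypes of a tissue in 1 model, over genes whose mean was 10 or more, with Benjamini-Hochberg adjustment over all of them. No member reached an adjusted p under 0.05, so the fold threshold of the study did not come into play. Groups came from the labels, with biological replicates. Genes of the lists were named where their adjusted p was under 0.05, except 1 that is not reported here, and 5 genes per tissue by their r. The members and lists were chosen with earlier results of these data known. Alternatives were a pseudocount of 5, no filter, fewer groups, edgeR 4.0.16 and DESeq2 1.42.0 on recovered reads, a replicate block, sets of replicates and each library left out. In simulated libraries, where 200 genes had a log2 change of 2, limma found 170 for Mertk -/-V1 in RPE and 196 in BMDMs. Smaller changes were not simulated, and member effects in the main fits were at most 1.52 in size. The simulation therefore does not tell how often changes of their size would be found.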

Additional observations from a re-analysis of the deposited data

Results flagged for a closer look

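For Ctss the effect of Mertk -/-V1 differed between the tissues, with a log2 fold change 1.28 higher in RPE than in BMDMs (SE 0.259, limma adjusted p = 0.0234 in a model of all 30 libraries). None of the 8 members passed that test in limma, and 0 of them had an unadjusted p under 0.05 for Mertk -/-V1. In 16 sets of 6 RPE values, no library of B6 WT or Mertk -/-V1 stood apart from its group for any member by Dixon's criterion (critical value 0.625). Groups of 3, among them Mertk -/-V3 RPE, are too small for it.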

How the results depend on the processing

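The count of members past an adjusted p of 0.05 was 0 in all 11 comparisons and stayed 0 in 9 of them under every alternative. For Mertk -/-V2 BMDMs it was 1 with a pseudocount of 5, 1 with DESeq2 and 0 to 2 when 1 library was left out, and for Mertk -/-V3 BMDMs 0 to 1 when 1 library was left out. Replicate numbers did not pair the samples in BMDMs, where 4 of 18 same-numbered pairs had r over 0.1, beside 14 of 36 other pairs. In RPE it was 13 of 21 same-numbered pairs (median r 0.151), beside 36 of 96 others (median -0.0034). Whether RPE libraries of the same number belong together was not tested. With the replicate block the count was 0 in all 11. The block turned H2-Aa in Mertk -/-V3 RPE to -0.0798.
Of 88 member effects, 56 kept their sign in every setting and 32 did not, the latter at most 0.448 in size. Among values given above, Cd86 in Mertk -/-V3 BMDMs turned to 0.0069 with edgeR, 0.0066 with DESeq2 and -0.0977 to 0.14 when 1 library was left out. In Mertk -/-V3 RPE, leaving out 1 library gave -0.16 to 0.94 for Cd74, -0.33 to 0.68 for H2-Ab1, -0.31 to 0.59 for H2-Eb1 and -0.39 to 0.68 for H2-Aa, lowest without replicate 2 and highest without replicate 1 of Mertk -/-V3. The cause was not tested. H2-Ob in Mertk -/-V1 BMDMs missed the threshold without B6 WT replicate 1 or 2 or without Mertk -/-V1 replicate 1 or 3 (limma adjusted p of 0.0573 to 0.0970), and Ifi30 against the other lines missed it without the filter (0.0758), with only the groups compared (0.0843) and without any 1 of the Mertk -/-V1 or Mertk -/-V3 libraries (0.0615 to 0.214). Within either set of RPE replicates Ctss missed it as well (0.211 and 0.185). Ciita in BMDMs and Cd86 in RPE are limited by their few reads. The number of all genes called moved with the settings: in Mertk -/-V3 RPE it was 13, and 5619 with the replicate block, and in Mertk -/-V2 RPE 13 and 706.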
